A study of Arabidopsis thaliana with 6 samples.

Results

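Kinesins are motor proteins that use ATP to walk along microtubules. In dividing plant cells they build the spindle, which separates the chromosomes, and the phragmoplast, the microtubule array that guides vesicles to the new cell plate. Flowering plants lack cytoplasmic dynein, and minus-end-directed work in their cells falls to the kinesin-14 class, whereas kinesin-5 motors crosslink and slide antiparallel microtubules and kinesin-12 motors sit where phragmoplast microtubules meet. The 10 genes described here are the kinesin-14 genes ATK1, ATK5, KATB and KATC, the kinesin-5 genes AT2G28620, AT2G36200 and AT3G45850, the kinesin-12 genes PAKRP1 and PAKRP1L, and PAKRP2. They were chosen by identifier from the 33557 genes of the table, with earlier results of these data known. All 10 were among the 22303 genes that the authors tested.

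Whole Arabidopsis thaliana seedlings of the cbe1 mutant were compared with seedlings of the wild-type accession Col0 by sequencing of poly(A) RNA from 3 libraries of each genotype, which the labels call biological replicates. All seedlings were 7 days old, from MS plates (1% sucrose) in a cycle of 16 hours light and 8 hours night. CBE1 is known as a plant partner of eIF4E, the translation factor that holds the mRNA cap. The kind of cbe1 mutation and the hour of harvest are not stated in the sources used here. The comparison asks which transcripts differ in the mutant.

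The authors' deposited table gives 1 value per gene and genotype in FPKM (a read count scaled for transcript length and sequencing depth), so no value per library and no spread between libraries can be shown, and the depth is unknown. A gene counts as changed when its q-value in that table, a p-value adjusted over all tested genes, was below 0.05. The 95% interval beside a log2 fold change (cbe1 over Col0) was derived from the authors' test statistic and takes their error model as given. The CBE1 transcript itself (AT4G01290, an identifier taken from knowledge of the study) had 4.48 FPKM in cbe1, against 13.8 FPKM in Col0 (log2 fold change −1.62, q = 1.41e-12 in the authors' deposited table). Over the 18450 tested genes averaging 1 FPKM or more, the median lay 0.17 above 0 on the log2 scale, and changes are set beside that shift below.

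All 10 proteins carry the P-loop, the ATP-binding motif of the motor domain, and its coding sequence is shown for each gene. The sequences are read 5′ to 3′ from the RefSeq annotation of TAIR10.1, and capitals mark the 14 of 27 bases that are the same in all 10 genes. The kinesin-14 stretches lie at chr4:11330945-11330971 (ATK1, minus strand), chr4:2678194-2678220 (ATK5, plus strand), chr4:13616281-13616307 (KATB, minus strand) and chr5:22212565-22212591 (KATC, plus strand). The kinesin-5 stretches lie at chr2:12269396-12269422 (AT2G28620, minus strand), chr2:15184646-15184672 (AT2G36200, minus strand) and chr3:16860356-16860382 (AT3G45850, minus strand). The others lie at chr4:8164001-8164131 (PAKRP1, minus strand), chr3:8520128-8520239 (PAKRP1L, plus strand) and chr4:8244609-8244635 (PAKRP2, plus strand). In PAKRP1 and PAKRP1L an intron lies within the stretch and is left out of the sequence.
ATK1: TAcGGtCagACcGGttctGGaAAgAcc
ATK5: TAcGGtCagACaGGttctGGcAAaAcc
KATB: TAtGGaCaaACaGGatctGGaAAaAct
KATC: TAtGGaCaaACtGGatcgGGaAAaAct
AT2G28620: TAtGGgCaaACaGGaactGGtAAgAca
AT2G36200: TAtGGtCagACtGGtactGGtAAaAca
AT3G45850: TAtGGtCagACcGGaactGGaAAgAcg
PAKRP1: TAtGGaCagACtGGtagtGGaAAaAca
PAKRP1L: TAtGGaCagACtGGcagtGGgAAaAcg
PAKRP2: TAtGGaCctACtGGtgctGGaAAgAgt
The codons for the P-loop begin at residue 515 in ATK1, 512 in ATK5, 471 in KATB and 480 in KATC, of 793, 790, 745 and 754 residues. The motor of these 4 proteins thus lies toward the C terminus. In the 6 other proteins the P-loop begins between residue 97 (AT2G36200, 1040 residues in all) and residue 169 (PAKRP1L, 1313 residues in all), which puts the motor near the N terminus.

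**Figure D1:**
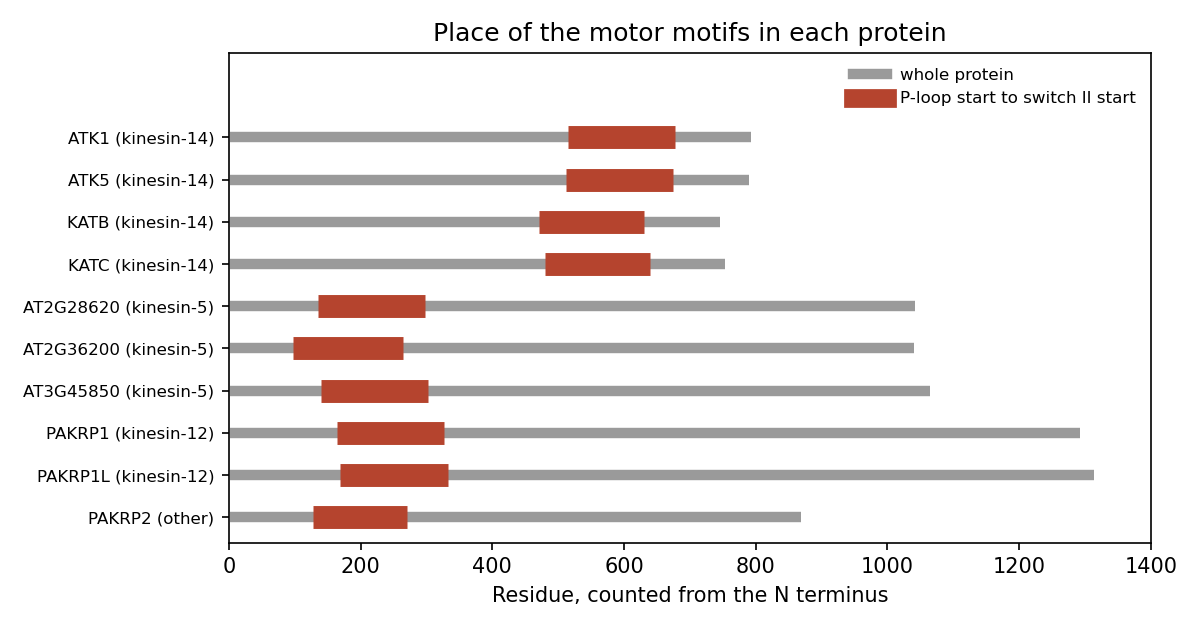
Place of the motor in the 10 proteins translated from RefSeq TAIR10.1, with residues counted from the N terminus on the horizontal axis. The grey bar is the whole protein and the red block runs from the start of the P-loop to the start of the switch II motif. The 4 kinesin-14 proteins have the block from residue 471 on and the other 6 have it between residues 97 and 332.

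Mitotic genes of plants often carry the core AACGG of the MSA (mitosis-specific activator) element, to which MYB3R transcription factors bind. In the 250 bases before the RefSeq gene start, that core stood on either strand in 4 of the 10 genes (KATC, AT2G28620, PAKRP1 and PAKRP1L) and in 20.6% of 27443 nuclear protein-coding genes. The windows of AT2G28620 and PAKRP1L, which held the most copies, and of PAKRP1, the nearest relative of PAKRP1L, are given on the coding strand, with AACGG and its reverse complement CCGTT in capitals. They lie in TAIR10.1 at chr2:12270764-12271013 (minus strand), chr3:8518886-8519135 (plus strand) and chr4:8165215-8165464 (minus strand).
AT2G28620: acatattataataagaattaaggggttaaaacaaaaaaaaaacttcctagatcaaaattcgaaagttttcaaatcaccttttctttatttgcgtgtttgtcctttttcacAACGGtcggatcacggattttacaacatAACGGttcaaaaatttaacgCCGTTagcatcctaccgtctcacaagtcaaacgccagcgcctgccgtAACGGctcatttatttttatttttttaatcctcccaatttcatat
PAKRP1L: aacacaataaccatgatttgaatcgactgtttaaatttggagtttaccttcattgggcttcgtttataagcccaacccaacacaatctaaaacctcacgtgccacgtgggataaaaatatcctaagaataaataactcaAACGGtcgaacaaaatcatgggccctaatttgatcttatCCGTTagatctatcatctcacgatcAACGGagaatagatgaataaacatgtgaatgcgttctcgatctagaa
PAKRP1: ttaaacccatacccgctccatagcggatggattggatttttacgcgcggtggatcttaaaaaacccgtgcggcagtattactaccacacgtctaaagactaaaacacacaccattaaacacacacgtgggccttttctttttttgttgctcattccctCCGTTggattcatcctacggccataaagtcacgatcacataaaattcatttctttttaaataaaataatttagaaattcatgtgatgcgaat
AT2G28620 held 4 copies, beginning 140, 112, 92 and 45 bases before the gene start. That gene start lies 743 bases before the first start codon, the longest such distance of the 10 genes. PAKRP1L held 3, beginning 111, 72 and 47 bases before its gene start, and PAKRP1 and KATC held 1 each. No copy stood in the windows of the other 6 genes (ATK1, ATK5, KATB, AT2G36200, AT3G45850 and PAKRP2). The match is a description of these letters only.

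The spindle and phragmoplast kinesins were higher in cbe1 seedlings or did not pass the threshold, and none was lower. Of the 10 genes, 5 were called higher (ATK1, ATK5, AT2G28620, PAKRP1L and PAKRP2) and 0 lower, against 3.31% of all tested genes called higher and 1.63% called lower. The 5 called genes had 2.20 to 2.48 times the Col0 level in cbe1. All 10 fold changes were above 0, and 9 were above the shift of all genes. Their median log2 fold change was 0.98, or 0.81 above that shift. Among the 11205 tested genes with mean levels in the range of these 10 (0.720 to 9.55 FPKM), the median was 0.19 and 2.60% were called higher. Because the 10 genes were chosen with earlier results of these data known, the contrast with these shares is a description only. In bulk seedlings, more dividing cells and more transcript per dividing cell cannot be told apart.

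When the authors' statistic was recentred on the median gene, 4 of the 10 were still called higher and PAKRP1L was not (recentred q = 0.0752), against 1.33% of all tested genes called higher. The interval of the fold change lay above 0 in 8 genes and above the shift in 6. The implied standard errors ran from 0.19 to 0.35 on the log2 scale.

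**Figure D2:**
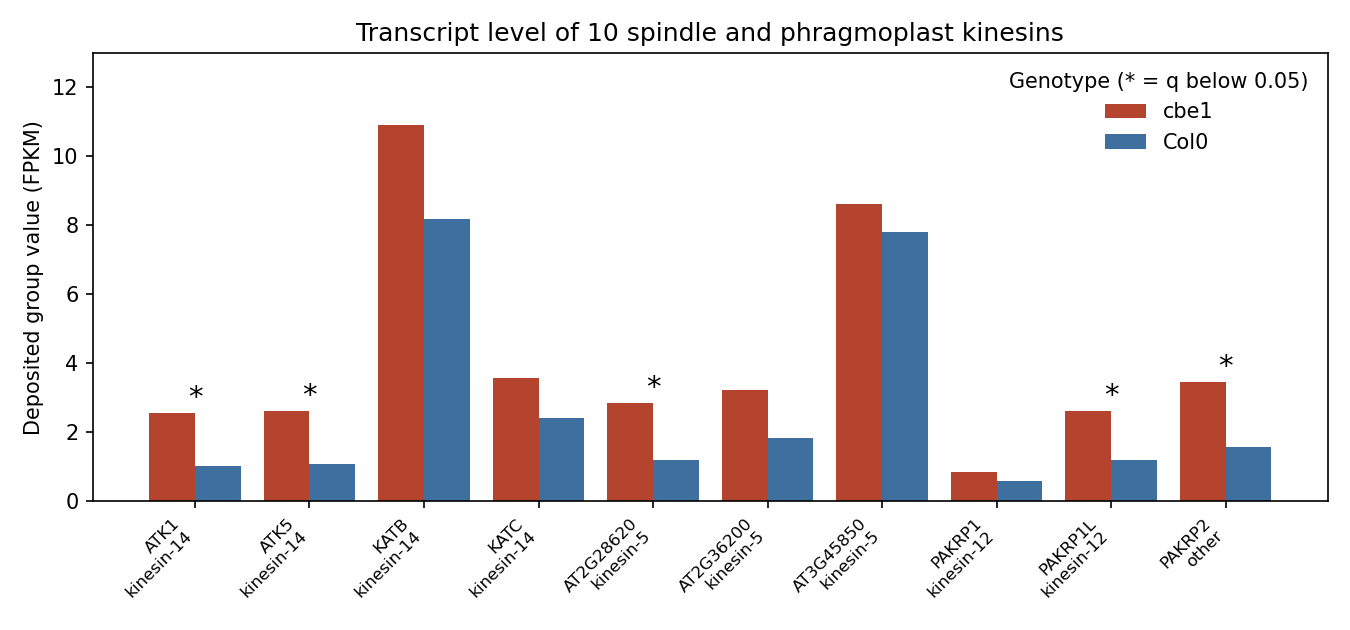
Level of each kinesin transcript as the authors' group value in FPKM (vertical axis), with cbe1 in red and Col0 in blue. An asterisk marks a q-value below 0.05 in the authors' deposited table, and no error bars are drawn because the table holds no value per library. The red bar is the taller one in all 10 genes, and the 5 marked genes stand between 1.03 and 1.57 FPKM in Col0.

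Positions below are the loci of the authors' deposited table (TAIR10), with the strand from RefSeq. The loci of ATK5 and AT3G45850 also cover a second gene, so they are not the span of the kinesin alone. In RefSeq TAIR10.1, ATK5 spans chr4:2675064-2680214. ATK1 (AT4G21270, chr4:11329363-11334135, minus strand), the minus-end-directed motor that gathers microtubules at spindle poles and is needed in male meiosis, had 2.56 FPKM in cbe1, against 1.03 FPKM in Col0. Its log2 fold change of 1.31 (95% interval 0.70 to 1.92) was the largest of the 10, with q = 0.00178 in the authors' deposited table. ATK5 (AT4G05190, chr4:2675101-2682309, plus strand), a related motor that keeps the mitotic spindle narrow, had 2.62 FPKM in cbe1 and 1.07 FPKM in Col0. The level in cbe1 was 2.46 times that in Col0, with a log2 interval of 0.61 to 1.99 and q = 0.00930 in the authors' deposited table. The difference between their log2 fold changes was 0.02, with an interval of −0.91 to 0.94.

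KATB (AT4G27180, chr4:13614856-13619156, minus strand), the most abundant of the 10 in both genotypes, had 10.9 FPKM in cbe1 and 8.19 FPKM in Col0, a log2 fold change of 0.41 (0.03 to 0.79) that missed the threshold (q = 0.241 in the authors' deposited table). KATC (AT5G54670, chr5:22209472-22214134, plus strand) had 3.58 FPKM in cbe1 and 2.42 FPKM in Col0, a log2 fold change of 0.56 (0.08 to 1.05), also short of it (q = 0.195 in the authors' deposited table). The interval of the difference between the 2 fold changes ran from −0.77 to 0.46. Summed, the 4 kinesin-14 transcripts had 19.7 FPKM in cbe1 and 12.7 FPKM in Col0, and KATB made up 55.4% of that sum in cbe1 and 64.5% in Col0. ATK1 exceeded KATB in log2 fold change by 0.90 (0.18 to 1.62) and ATK5 did so by 0.89 (0.10 to 1.67).

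ATK1 and ATK5 are close relatives, as are KATB and KATC, and reads from shared stretches could have been counted for either gene of a pair. How the authors treated such reads is not stated in the sources used here, so the split of a pair's signal between its genes is uncertain. The KATB and KATC proteins are identical at 83.8% of aligned positions and their coding sequences share a run of 44 bases. The ATK1 and ATK5 proteins are identical at 83.1% of aligned positions. The longest run shared by the ATK1 and ATK5 coding sequences is 40 bases, shown in capitals with 10 bases on each side, at chr4:11332470-11332529 (ATK1, minus strand) and chr4:2676586-2676645 (ATK5, plus strand) in TAIR10.1.
ATK1: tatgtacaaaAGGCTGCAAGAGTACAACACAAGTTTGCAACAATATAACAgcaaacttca
ATK5: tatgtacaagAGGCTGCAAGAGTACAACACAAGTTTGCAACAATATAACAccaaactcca
ATK5 also shares its locus in the deposited table with CRK25, a receptor-like kinase gene on the opposite strand. CRK25 had 3.76 FPKM in cbe1 and 2.95 FPKM in Col0 (log2 fold change 0.35, q = 0.627 in the authors' deposited table), so it was not called. Whether reads were counted by strand is not stated in the sources used here, and the part of CRK25 in the ATK5 value was not tested.

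Of the 3 kinesin-5 genes described here, whose class cross-links spindle and phragmoplast microtubules, 1 was called. AT2G28620 (chr2:12265167-12270020, minus strand) rose to 2.84 FPKM in cbe1, against 1.20 FPKM in Col0 (log2 fold change 1.24, interval 0.68 to 1.80, q = 0.00115 in the authors' deposited table). AT2G36200 (chr2:15179869-15185314, minus strand) had 3.22 FPKM in cbe1 and 1.82 FPKM in Col0, and its log2 fold change of 0.82 (0.25 to 1.39) did not pass (q = 0.0740 in the authors' deposited table). AT3G45850 (chr3:16855612-16861535, minus strand), the most abundant of these 3, had 8.61 FPKM in cbe1 and 7.80 FPKM in Col0. Its log2 fold change of 0.14 (−0.23 to 0.51) was the smallest of the 10, with q = 0.783 in the authors' deposited table, and came to −0.033 once the shift of all genes was taken off.

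AT2G28620 exceeded AT3G45850 in log2 fold change by 1.10 (0.43 to 1.77). Their proteins, at 68.0% identity, were nonetheless the most alike of the 3 pairs among these kinesin-5 genes. AT2G28620 and AT2G36200 differed by 0.42, with an interval of −0.38 to 1.22. The sum of these 3 kinesin-5 genes was 14.7 FPKM in cbe1 and 10.8 FPKM in Col0. AT3G45850 made up 58.7% of it in cbe1 and 72.1% in Col0. The other 2 genes together had 6.06 FPKM in cbe1 and 3.03 FPKM in Col0. AT3G45850 shares its locus in the deposited table with AT3G45851, a gene of 105 bases on the opposite strand. It was listed at 0 in cbe1 and at 13.6 FPKM in Col0 without passing the threshold (q = 0.807 in the authors' deposited table).

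PAKRP1 and PAKRP1L are kinesin-12 motors that gather at the midline of the phragmoplast and act redundantly in the first division of pollen. PAKRP1L (AT3G23670, chr3:8519164-8525289, plus strand) had 2.62 FPKM in cbe1 and 1.19 FPKM in Col0, a log2 fold change of 1.14 (0.49 to 1.79) with q = 0.0192 in the authors' deposited table. PAKRP1 (AT4G14150, chr4:8158572-8165008, minus strand), at 0.861 FPKM in cbe1 and 0.579 FPKM in Col0 the least abundant of the 10, had a log2 fold change of 0.57 (−0.12 to 1.26) and did not pass (q = 0.433 in the authors' deposited table). That 1 of the pair passed does not show that they differ, since the interval of PAKRP1 minus PAKRP1L ran from −1.52 to 0.38. Their proteins are identical at 71.9% of aligned positions. The longest run shared by their coding sequences is 44 bases, in capitals here with 10 bases on each side, at chr4:8163947-8164010 (PAKRP1, minus strand) and chr3:8520230-8520293 (PAKRP1L, plus strand) in TAIR10.1.
PAKRP1: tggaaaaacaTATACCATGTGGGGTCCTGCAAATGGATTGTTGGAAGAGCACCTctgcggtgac
PAKRP1L: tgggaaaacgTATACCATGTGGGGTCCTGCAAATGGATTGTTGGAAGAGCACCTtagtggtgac
The 2 genes together had 3.48 FPKM in cbe1 and 1.77 FPKM in Col0. PAKRP2 (AT4G14330, chr4:8244194-8247444, plus strand), which moves vesicles along the phragmoplast toward the cell plate, had 3.46 FPKM in cbe1 and 1.57 FPKM in Col0. Its log2 fold change was 1.14 (0.60 to 1.68), with q = 0.00206 in the authors' deposited table.

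**Figure D3:**
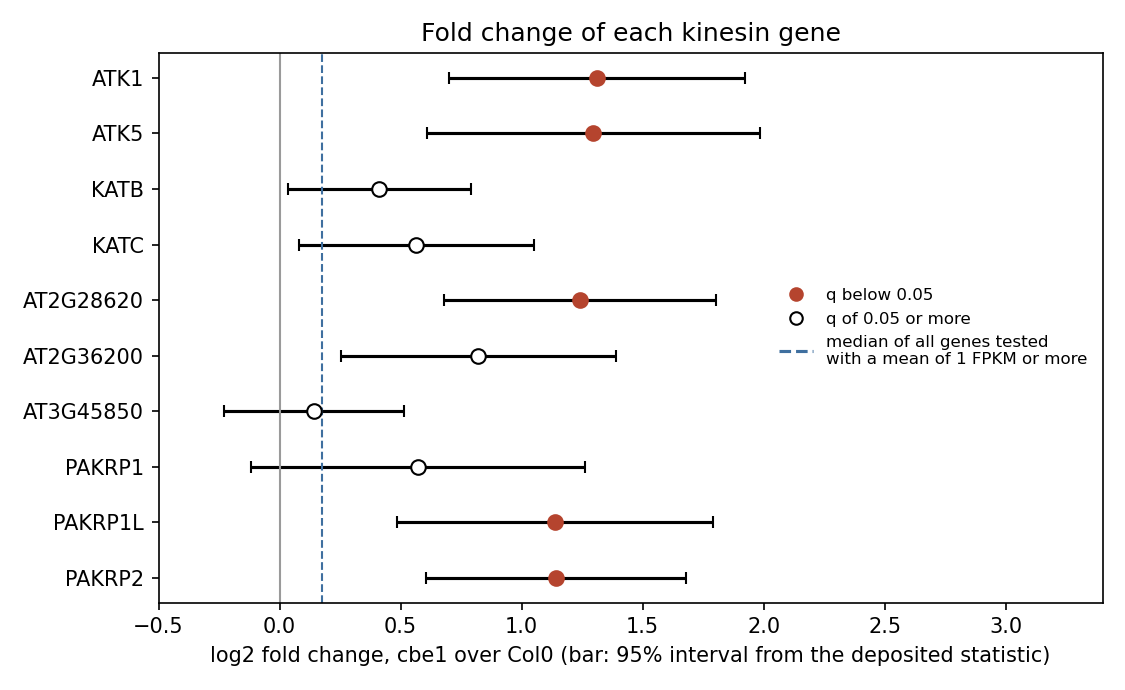
Log2 fold change of each gene, cbe1 over Col0 (horizontal axis), with its 95% interval from the authors' statistic as a bar. Filled points had q below 0.05, the grey line is 0 and the dashed line is the median of all tested genes with a mean of 1 FPKM or more, at 0.17. The 5 filled points lie between 1.14 and 1.31, and the 5 open ones between 0.14 and 0.82.

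The order of levels in Col0 ran from KATB and AT3G45850 at the top through KATC, AT2G36200, PAKRP2, AT2G28620, PAKRP1L, ATK5 and ATK1 to PAKRP1. In cbe1, KATB and AT3G45850 were again highest and PAKRP1 lowest. With no value per library it cannot be said which neighbours in that order differ. The 5 called genes lay close together in both genotypes, at 2.56 to 3.46 FPKM in cbe1 and 1.03 to 1.57 FPKM in Col0. Of the 45 pairs of the 10 genes, 10 had an interval of the difference in fold change without 0, unadjusted, and all 10 of these pairs held KATB or AT3G45850, the 2 most abundant genes. These 2 genes also had the smallest implied standard errors of the 10 (0.19 each), which narrows the intervals of pairs that hold them. The interval of AT2G36200 minus AT3G45850 began at only 0.0008.

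The 10 genes were also set beside the rest of the motor family. Both motor motifs, the P-loop and switch II, were found in the proteins of 56 genes of the table, of which 52 were tested. Called higher were 13 (the 5 named above and 8 others) and called lower none, against 3.31% and 1.63% of all tested genes. With the recentred statistic 7 were called, 4 of the 10 described here and 3 others. The highest mean level of a motor gene called as deposited was 3.79 FPKM. This cut was taken from the calls, so by construction no gene above it was called. Of the 35 tested motor genes at or below that level, 8 were among the 10 described here. The 17 genes above it, with KATB and AT3G45850 among them, had log2 fold changes between −0.23 and 0.59. Across the 52 genes, which share the same libraries, the Spearman correlation of mean level and log2 fold change was −0.61, given as a description. The level is part of the fold change, so the 2 measures are not independent.

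**Figure D4:**
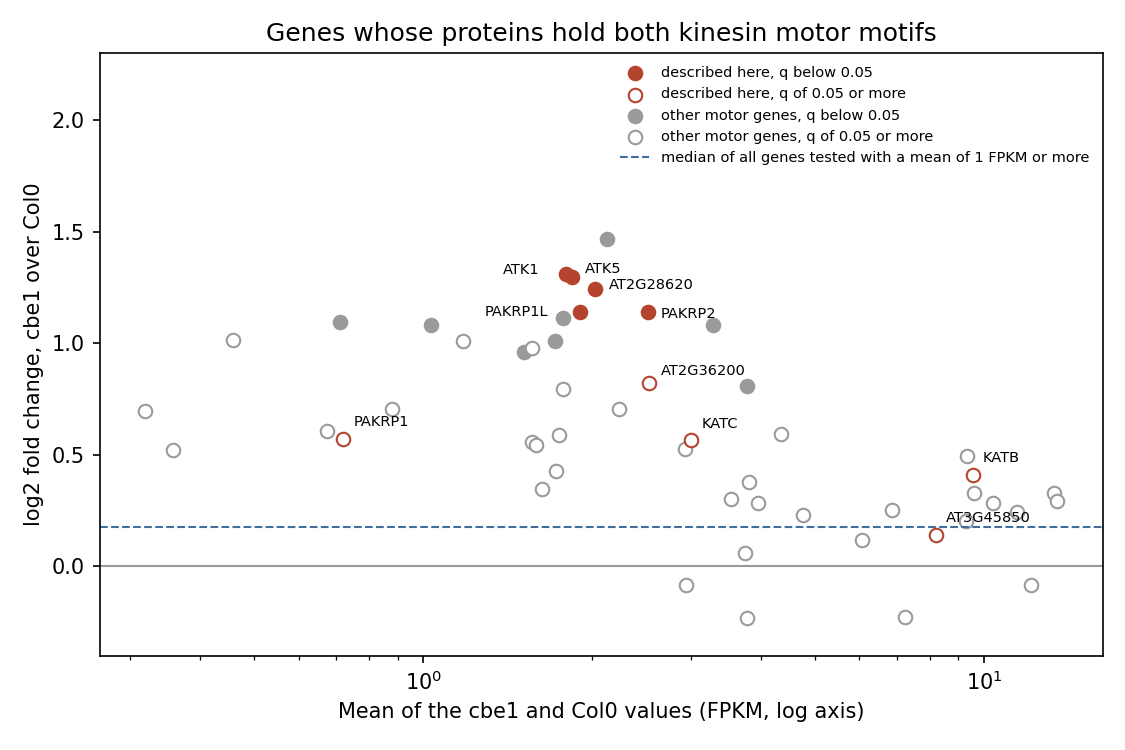
Log2 fold change, cbe1 over Col0, against the mean of the 2 group values on a log axis in FPKM, for the 52 tested genes whose proteins hold both motor motifs. Red points are the 10 genes described here, grey points the other 42, and filled points had q below 0.05. The rightmost of the 13 filled points lies at 3.79 FPKM, and the dashed line is the median of all tested genes with a mean of 1 FPKM or more.

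Among the 6 other kinesins with a known part in division, 3 were called higher and none lower. For this list and those below, the shares of all tested genes were 3.31% called higher and 1.63% called lower. POK1 and POK2, which hold the memory of the division plane at the cortex, had log2 fold changes of 1.10 and 1.08 (q = 0.0142 and 0.00115 in the authors' deposited table). HINKEL (HIK), which activates the kinase cascade that expands the phragmoplast, had 4.47 FPKM in cbe1 and 2.11 FPKM in Col0 (log2 fold change 1.08, q = 7.05e-04 in the authors' deposited table). The list's median was 0.83, and with the recentred statistic HIK and POK2 were still called and POK1 was not. Of 11 kinesins that act in non-dividing cells, none was called, and none had an unadjusted p below 0.05. KP1 came close to it, with p = 0.05002 in the authors' deposited table (log2 fold change 0.54). For counts by unadjusted p, here and below, the share of all tested genes is not given. A count of none among 11 does not set this list apart from all tested genes, of which 3.31% were called higher. The median of these 11 was 0.28. Kinesin-13A, which acts on Golgi stacks and cell wall patterning, had 14.8 FPKM in cbe1 and 11.8 FPKM in Col0 (log2 fold change 0.33). AT4G39050, the other of the 2 most abundant, had 11.8 FPKM in cbe1 and 12.5 FPKM in Col0 (log2 fold change −0.08).

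Of 25 further genes that the annotation names as kinesins, 21 were tested and 6 were called higher. These 6 had log2 fold changes between 0.96 (AT1G72250) and 1.11 (AT2G22610), with AT5G23910, AT5G55520, AT4G26660 and AT3G20150 between them, and 3 of them were called with the recentred statistic. The proteins of AT5G23910, AT5G55520, AT4G26660 and AT3G20150 did not hold both motor motifs as searched, so they are not among the 13. AT4G26410 and AT2G21380, the 2 most abundant of this list, had log2 fold changes of 0.01 and 0.29 and were not called. The protein of AT4G26410 did not hold both motor motifs either. The largest change in the motor family was that of AT5G60930, with 3.13 FPKM in cbe1 and 1.13 FPKM in Col0 (log2 fold change 1.47, q = 9.38e-06 in the authors' deposited table).

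Microtubule proteins and kinases that work with these motors were called in 3 cases. Of 18 microtubule partners, 2 were called higher and none lower, with a median of 0.58. PLEIADE (PLE), which bundles antiparallel microtubules in the phragmoplast, had 3.76 FPKM in cbe1 and 1.40 FPKM in Col0 (log2 fold change 1.43). TPX2, a spindle assembly factor, had 4.65 FPKM in cbe1 and 1.82 FPKM in Col0 (log2 fold change 1.36). Their q-values in the authors' deposited table were 1.32e-04 and 0.00396. Of 11 kinases, 1 was called, AUR1, an Aurora kinase of the spindle (log2 fold change 1.10, q = 0.0200 in the authors' deposited table). AUR1 was not called with the recentred statistic. CDKA1, the cyclin-dependent kinase active throughout the cycle, had a log2 fold change of 0.24 and was not called.

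None of the 4 MYB3R genes tested was called. MYB3R1 had 4.80 FPKM in cbe1 and 3.06 FPKM in Col0 (log2 fold change 0.65, q = 0.0551 in the authors' deposited table), and MYB3R3 had a log2 fold change of 0.18. Of these 4, 2 had an unadjusted p below 0.05. Of 10 B-type cyclins and B-type cyclin-dependent kinases, 4 were called higher: CDKB1;1, CDKB2;1, CYCB1;2 and CYCB1;4, with log2 fold changes of 1.40, 1.23, 1.18 and 0.90. With the recentred statistic CDKB2;1 and CYCB1;2 were still called. The median of that list was 0.98, the same to 2 decimals as that of the 10 kinesins. Of 8 S phase genes, MCM5 and MCM3 of the replicative helicase were called higher (0.86 and 0.81), and neither was with the recentred statistic. That list's median was 0.65.

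**Figure D5:**
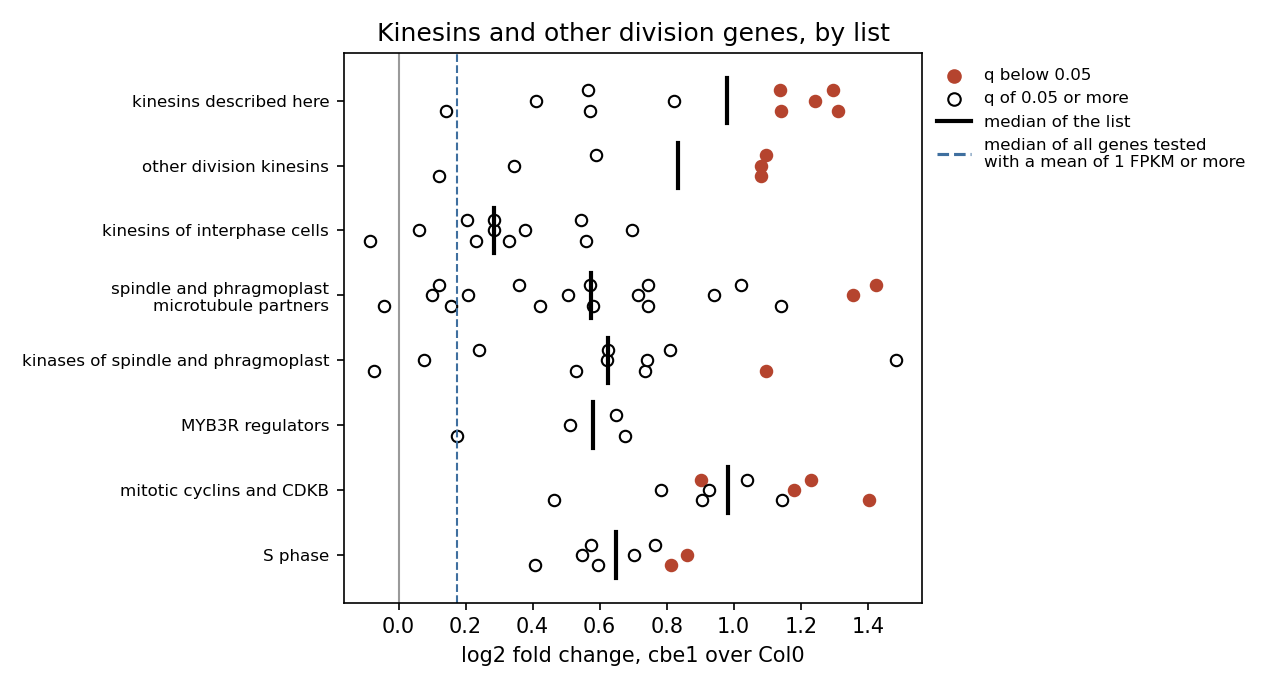
Log2 fold change, cbe1 over Col0, of each tested gene by list (1 point per gene, spread vertically for legibility). Filled points had q below 0.05, the black bar is the median of the list and the dashed line the median of all tested genes with a mean of 1 FPKM or more. The medians are 0.98 for the 10 kinesins, 0.83 for other division kinesins and 0.28 for kinesins of interphase cells.

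Among markers of tissues with dividing cells, 2 genes were called. Of the 3 tested shoot meristem markers, ANT, a growth regulator of young organs, was called higher (log2 fold change 0.78, q = 0.0345 in the authors' deposited table), and CLV1 was not (−0.35). The meristem markers WUS, CLV3, PLT1 and PLT2 were at 0.213 FPKM or less in both genotypes and untested. None of the 3 tested root meristem markers was called (SHR 0.59, SCR 0.08). Of 7 stomatal lineage markers, SPCH, which starts that lineage, was called higher (log2 fold change 1.75, q = 0.0394 in the authors' deposited table), and TMM was not (0.34). The tested shoot meristem markers summed to 17.0 FPKM in cbe1 and 17.0 FPKM in Col0, but they did not move together. CLV1 had 10.1 FPKM in cbe1 and 12.9 FPKM in Col0, whereas ANT had 5.79 FPKM in cbe1 and 3.38 FPKM in Col0. STM had 1.07 FPKM in cbe1 and 0.770 FPKM in Col0 (log2 fold change 0.48, not called). The root meristem markers summed to 12.8 FPKM in cbe1 and 10.9 FPKM in Col0, and the stomatal markers to 24.8 FPKM in cbe1 and 18.2 FPKM in Col0. With the recentred statistic no meristem or stomatal marker was called.

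Of 8 shoot markers 6 were tested and none was called (RBCS3B 0.21, LHCA1 −0.01). The other 2, RBCS1A and LHCB1.3, were listed at 0 in at least 1 genotype, carried the authors' mark HIDATA and were not tested. None of 5 root markers was called (PYK10 −0.62, CASP1 0.62). The part of cell type composition in the kinesin values was not tested.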

How the data were processed

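Per the labels, poly(A) RNA was sequenced from whole seedlings in 3 libraries per genotype. Per the submitters' processing notes, TopHat, Cuffdiff and the build TAIR10 were used, with no versions given. The authors deposited 1 FPKM value per gene and genotype, a log2 fold change, a test statistic (a score whose sign runs against the fold change), a p-value and a q-value. Scaling between libraries, strand use and depth are not stated in the sources used here, so no counting interval could be set. No value per library was analysed here.

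The members and gene lists were chosen with earlier results of these data known. Genes named are the 10 kinesins, CBE1 and, per list, up to 4 called genes by size of change, filled to 2 by abundance (6 called and the 2 most abundant for further annotated kinesins). The naming of AT5G60930, AT2G01021, KP1, locus partners, SESA3, SESA4, RBCS1A, LHCB1.3 and low-level markers, and the motor motif rule, were chosen after values were seen.

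Fold changes use the deposited FPKM with no pseudocount. On the table itself, p was that of a two-tailed normal test on the statistic (largest gap 2.74e-06) and q its Benjamini-Hochberg adjustment over 22303 genes (largest gap 2.46e-06). The implied standard error is the fold change divided by the statistic, and differences between genes treat these errors as independent. Recentred statistics subtract a shift from every fold change, with p and the adjustment redone. They were tested on data simulated with the same standard errors that the method assumes. That checks the calculation only, and not the authors' error model or the choice of shift. Other thresholds, filters, pseudocounts and scalings were tried. Of 26824 nuclear loci with 1 gene, 64.3% share a transcript end with the same identifier in RefSeq TAIR10.1, as do 5 of the 10 kinesins, so gene ends can differ between the 2 annotations. Proteins were translated from that annotation. A motor gene has a P-loop and a switch II motif 100 to 260 residues apart. Identity is over a global alignment (BLOSUM62, Biopython 1.88). Python 3.11.15, numpy 2.4.6, pandas 2.3.3, scipy 1.17.1 and matplotlib 3.10.9 were used.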

Additional observations from a re-analysis of the deposited data

How the results depend on the processing

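The count of 5 kinesins called higher was 4 at a q-value below 0.01, 5 with a minimum log2 fold change of 1 or a minimum mean of 1 FPKM, 4 recentred on the median gene, and 4 among nuclear protein-coding genes with an unshared locus, where ATK5 and AT3G45850 drop out by construction. Recentred on the median gene, PAKRP1L lost its call (0.96) and AT3G45850 turned to −0.033. Recentred on the sum of nuclear protein-coding genes, 88.9% of all tested genes were called higher, among them all 10 kinesins and all 35 genes of the other division kinesin, microtubule partner and kinase lists (6 as deposited), and the kinesin median was 2.74. This sum was set by AT2G01021, a gene of 102 exon bases that made up 52.5% of it in cbe1 and 85.9% in Col0. With genes of 300 or more exon bases, a choice made after seeing the data, the shift was 0.12. Then 4 kinesins were called higher, against 1.66% of all tested genes, and PAKRP1L was not (1.02). With a pseudocount of 1 FPKM the kinesin median was 0.65. Of 30 recentred single-gene values, which include those recentred on the sum set by AT2G01021, 22 kept direction and side of the threshold. Another 5 passed the threshold only with that sum, PAKRP1L lost its call in 2 and AT3G45850 reversed in 1. Of 20 single-gene values with a pseudocount, which have no test, all kept direction and 5 moved by more than the implied standard error. No paired analysis was possible because the deposited table holds 1 value per genotype, and for the same reason no library could be left out. The intervals rest on the authors' error model, which could not be checked against the spread between libraries.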

Other observations

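Within 3000 bases of the 10 genes the table holds 29 other genes, of which 18 were tested. Of these, 1 was called, against 3.31% of all tested genes called higher and 1.63% called lower. That gene is SESA3, a seed storage albumin beside KATB, with 0.216 FPKM in cbe1 and 2.98 FPKM in Col0 (log2 fold change −3.78, q = 3.78e-05 in the authors' deposited table). SESA4, of the same family, which lies between SESA3 and KATB, had 0.0409 FPKM in cbe1 and 0.636 FPKM in Col0 and did not pass (q = 0.198 in the authors' deposited table).

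In the 300 bases before the first start codon, a window chosen after seeing the data that includes leader sequence, AACGG stood on either strand in 6 of the 10 kinesin genes (KATC, AT2G28620, AT2G36200, PAKRP1, PAKRP1L and PAKRP2) and in 23.9% of 27443 genes. AT2G28620 held 1 copy in this window, against 4 in the window before its gene start, and PAKRP1L held 4, against 3. ATK1 and ATK5, which had the largest log2 fold changes of the 10, held no copy in either window. KATB and AT3G45850, which had the smallest, held none either.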
